A study of Homo sapiens with 8 samples.

Results

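Acetylation of histone H3 at lysine 27 (H3K27ac), found at promoters and enhancers in use, was examined at 9 loci that give rise to microRNAs or to long nuclear RNAs. They were the host genes MIR100HG, MIR222HG, MIR17HG, MIR22HG and MIR31HG, the long non-coding RNA gene LINC-PINT, the microRNA gene MIR21, and the long nuclear RNA genes MALAT1 and NEAT1. A peak belonged to a locus if it touched the gene's RefSeq span plus 50 kb either side, and went to the closest member where windows met. The 9 genes, of 59080 in the gene table, held 60 of 39797 control peaks and 54 of 42552 ARID1A knockout peaks, which merged into 61 of 48662 regions. The loci were selected on peak classes seen earlier in these same lists (shared, control-only or knockout-only), so their classes, positions and lengths are given as a description, with no test.

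The cells were of the MDA-MB-231 line, grown from a triple-negative breast cancer, either control or knocked out for ARID1A, which is part of the SWI/SNF complex that moves nucleosomes. Each genotype had 2 immunoprecipitated and 2 input libraries (8 in all). No other treatment or allele was named, and nothing said whether the knockout was a clone or whether replicates were separate cultures. Each genotype was represented by 1 peak list, so every value is 1 value per genotype, with no spread between replicates and no test of the genotype. The titles and characteristics named H3K27ac, whereas the extraction protocol named an antibody to another mark, and the word acetylated rests on the titles. Of the markers of mesenchymal breast cancer lines, 7 of 8 had a listed start, and all 7 lay under a peak in both lists. Of 4 luminal breast markers with a listed start, 2 did so, ESR1 lay under a knockout peak alone and PGR under none. No start of the blood cell markers CD14 and PTPRC, the liver marker ALB or the neuron marker RBFOX3 lay under a peak.

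MicroRNAs are cut as hairpins from longer host transcripts, trimmed to short mature strands, and loaded into Argonaute proteins. The seed, bases 2 to 8 of the mature strand, pairs with target messages and largely sets which messages are repressed. Hairpins of 1 host are commonly cut from the same transcript, so they share its promoter. MALAT1 RNA gathers in nuclear speckles and NEAT1 RNA is the scaffold of paraspeckles.

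The windows held 18 hairpins, of which 17 had mature sequences in the RefSeq table (GRCh38.p14, the same assembly as hg38), and MIR612 in NEAT1 did not. The strands below are those that the results on hairpins refer to, written 5′ to 3′ with the seed in capitals. MIR100HG hosts 3 classical microRNAs with 3 different seeds, and their hairpins differed in how they lay to the peaks.
hsa-miR-100-5p: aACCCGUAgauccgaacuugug
hsa-let-7a-5p: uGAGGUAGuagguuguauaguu
hsa-miR-125b-5p: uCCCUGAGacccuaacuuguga

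MIR222HG hosts a pair with 1 seed, which repress the cell cycle inhibitor p27, and the hairpins just beyond the lower-coordinate end of LINC-PINT give another such pair, which repress collagen and other matrix genes. Both pairs are shown because 1 hairpin of each pair lay under a peak of a list while its neighbour did not.
hsa-miR-221-3p: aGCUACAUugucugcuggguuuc
hsa-miR-222-3p: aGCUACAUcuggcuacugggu
hsa-miR-29a-3p: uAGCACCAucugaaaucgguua
hsa-miR-29b-3p: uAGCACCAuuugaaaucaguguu

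MIR17HG carries 6 hairpins, the cluster with growth-promoting roles that is a target of MYC. Its strands fall into shared-seed pairs (miR-17 with miR-20a, miR-19a with miR-19b) and the single seeds of miR-18a and miR-92a, and they are shown because the whole cluster lay just outside a peak.
hsa-miR-17-5p: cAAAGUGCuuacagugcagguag
hsa-miR-20a-5p: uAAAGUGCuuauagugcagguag
hsa-miR-19a-3p: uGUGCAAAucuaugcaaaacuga
hsa-miR-19b-3p: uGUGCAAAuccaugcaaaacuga
hsa-miR-18a-5p: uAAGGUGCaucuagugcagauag
hsa-miR-92a-3p: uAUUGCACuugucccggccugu

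The remaining strands are those of the single-microRNA loci. MIR21 encodes a microRNA known as highly expressed in many tumours, miR-22 is linked to restraint of growth, and miR-31 is linked to restraint of metastasis in breast cancer. Over all 30 mature strands of these hairpins, 5 seeds occurred more than once.
hsa-miR-21-5p: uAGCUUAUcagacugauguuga
hsa-miR-22-3p: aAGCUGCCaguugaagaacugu
hsa-miR-31-5p: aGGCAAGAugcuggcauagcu

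Of the 9 loci, 8 were acetylated in both genotypes, and the widest and strongest peaks of each overlapped between the lists. Of the 60 control peaks, 47 overlapped a knockout peak by at least 1 bp and 13 were control-only (21.7%, exact binomial 95% interval 12.1 to 34.2, counting error only). Over the whole control list, 18.0% of peaks were control-only. Of the 54 knockout peaks, 47 were shared and 7 were knockout-only (13.0%, 5.37 to 24.9), against 22.4% of the whole knockout list. The choice of loci used these classes, and the intervals count neighbouring peaks as independent. The shares are therefore not read against each other or against the whole lists. MIR100HG alone held 7 of the 13 control-only peaks, and without it 12.5% of control peaks (6 of 48) and 12.2% of knockout peaks (6 of 49) were genotype-only. Of the genotype-only peaks, 1 of 13 in control and 3 of 7 in knockout had a −log10 q of at least 5. With that threshold applied to both lists, 2 control-only and 5 knockout-only peaks were counted, because a shared peak becomes genotype-only when its partner falls below the threshold. The median −log10 q was 10.6 in the whole control list and 15.0 in the whole knockout list. A fixed threshold thus does not cut both lists alike, and the whole-list shares at it are not given here.

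Genotype-only peaks at these loci were narrow and weak, where strength is the authors' fold enrichment over background, ranked within its own list. A higher fold in 1 list than in the other is therefore not read as stronger acetylation. The 13 control-only peaks were 250 to 2543 bp wide (median 582 bp), with folds from 2.35 to 4.38 and a median fold percentile of 5.54. The 7 knockout-only peaks were 229 to 2448 bp wide (median 515 bp), with folds from 2.35 to 6.37 and a median percentile of 26.3. Shared peaks had a median width of 5192 bp in control and 2923 bp in knockout. No control-only peak lay in the upper 50% of its list by fold. In the whole control list 303 of 7155 control-only peaks did, or 0.761% of all control peaks. Of the knockout-only peaks here 1 lay in that upper 50%, beside MIR222HG. In the whole knockout list 721 of 9526 did, or 1.69% of all knockout peaks. Few genotype-only peaks were strong in the whole lists either, so weakness is not read as particular to these loci.

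**Figure D1:**
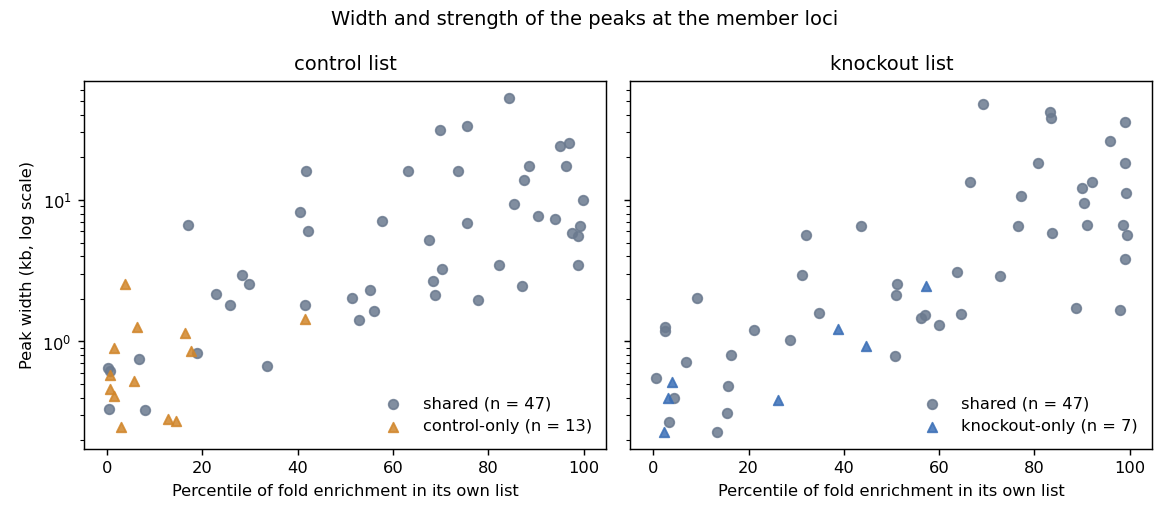
Each point is a peak at a member locus, with its percentile of fold enrichment within its own list (x axis) and its width in kb (y axis, log scale), for the control list (left) and the knockout list (right). Triangles are genotype-only peaks (13 and 7), which all lie below 3 kb, and circles are the 47 shared peaks of each list, which reach 52.8 kb in control and 47.4 kb in knockout.

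The acetylated length differed far more between loci than between genotypes, from 101 kb at LINC-PINT to 3.50 kb at MIR17HG in control. The windows of the loci also differed in length, at 332 kb for LINC-PINT and 107 kb for MIR17HG. Within the windows, control peaks covered 393 kb and knockout peaks 368 kb, of which 339 kb lay under both. That is a knockout to control ratio of 0.937, beside 1.03 for the whole lists. Covered length was greater in control at 4 loci (MIR100HG, MIR222HG, LINC-PINT and NEAT1) and in knockout at 4 (MIR17HG, MIR22HG, MIR21 and MALAT1). The median ratio over the loci was 1.01, beside 0.955 over all genes of the table with a control peak in the same kind of window. Windows of neighbouring genes overlap, so those genes are not independent.

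**Figure D2:**
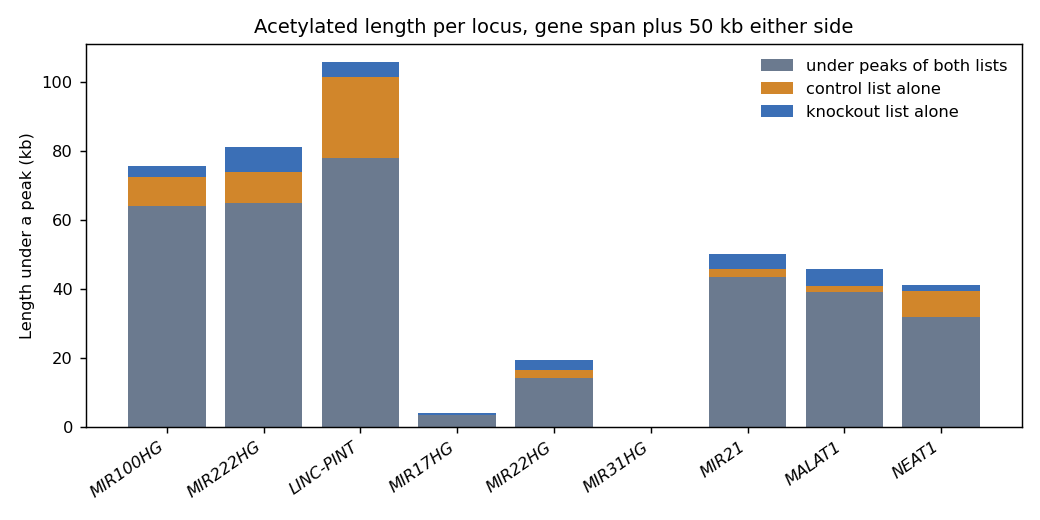
Bars give the length under a peak in kb at each locus, split into sequence under peaks of both lists, of the control list alone and of the knockout list alone. Most of each bar is common to both lists, the widest control-alone part is that of LINC-PINT (23.6 kb), and MIR31HG has no bar because neither list has a peak there.

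Most loci ranked high among all genes in the share of the window under a peak. The loci were chosen on peaks of these lists, so the ranks are a description only. MIR222HG had 59.1% of its window covered in control and 57.7% in knockout, above 99.97% and 99.98% of genes. NEAT1 had 49.3% and 47.0% and MIR21 45.7% and 47.8%. MALAT1 had 42.9% and 46.8%, and LINC-PINT 30.5% and 24.7%. MIR100HG, with a window of 495 kb, had 14.7% and 13.6%. MIR17HG had only 3.27% and 3.80%, above 55.4% and 57.9% of genes, and MIR31HG had none. For these shares all peaks in a gene's own window were counted, including those that the closest-member rule gave to a neighbour.

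MIR100HG (chromosome 11, 122028329 to 122422871, on the minus strand) is a host gene of 395 kb whose microRNAs are known for roles in differentiation and in resistance to cetuximab. Its acetylation lay in a domain inside the gene and not at the far upstream start. The domain held 3 control peaks, of 15.9 kb with fold 4.38 (122136257 to 122152180), 31.2 kb with fold 8.16 (122153335 to 122184520) and 17.3 kb with fold 12.9 (122185997 to 122203267). In knockout it held 2, of 47.4 kb with fold 8.88 (122135741 to 122183178) and 18.2 kb with fold 12.2 (122185209 to 122203448). The first of these was the widest peak of the whole knockout list. It overlapped the first 2 control peaks, which covered 96.5% of it, and it held the whole of the first and 95.7% of the second. The summed length there was 47.1 kb in control and 47.4 kb in knockout. The domain was thus of nearly the same extent in both lists and was divided differently. By fold percentile its control peaks lay at 41.6, 69.9 and 88.6 and its knockout peaks at 69.3 and 80.7.

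Outside that domain MIR100HG carried 9 control and 3 knockout peaks, with folds of 4.38 or less. A group of 3 control-only peaks lay toward the 3′ end of the gene, at 122038176 to 122038587 (fold 2.42), 122039672 to 122041113 (4.38) and 122043160 to 122045702 (2.55). The nearest knockout peak was 59.7 kb away. Their −log10 q values were 2.3, 12.7 and 1.9, and the middle one was the only control-only peak of MIR100HG with a −log10 q of at least 5. A further 3 (122108711 to 122109234, 122110528 to 122111424 and 122125456 to 122125705, folds 2.62, 2.42 and 2.52) lay among shared peaks between the hairpins. The only knockout-only peak of the locus (122107891 to 122108288, fold 2.40) was 422 bp from the first of these.

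The 6 listed starts of MIR100HG differed in acetylation. The start at 122105616 lay under weak peaks of both lists (control fold 2.35, knockout fold 2.42). The start at 122367988 lay under a control-only peak of 582 bp (122367627 to 122368208, fold 2.35, −log10 q 1.2), at fold percentile 0.641 of the list, and the nearest knockout peak was 164 kb away. The other 4 starts, including the most upstream at 122422871, had no peak in either list. Of the 34961 listed starts of all genes, 1.45% lay under a control peak alone and 1.66% under a knockout peak alone. The promoter of the start at 122367988 (chr11:122367939-122368238, minus strand, hg38, 250 bases before to 50 after the start, from RefSeq) is shown because it was the only listed start of any member under a peak of 1 list alone.
MIR100HG promoter: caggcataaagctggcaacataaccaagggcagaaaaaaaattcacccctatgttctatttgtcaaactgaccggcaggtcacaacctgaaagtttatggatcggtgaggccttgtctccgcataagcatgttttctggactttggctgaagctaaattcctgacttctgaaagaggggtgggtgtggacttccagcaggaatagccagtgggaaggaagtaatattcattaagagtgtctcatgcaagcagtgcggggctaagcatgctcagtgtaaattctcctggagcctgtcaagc
It held 47.0% G and C and 4 CG pairs, against a mean of 57.6% and a median of 14 over 34961 promoters. None of the 5 motifs searched was in this window. They were the AP-1 site TGANTCA, the E-box CACGTG, the GC box GGGCGG, the TATA box TATAAA and the cyclic AMP response element TGACGTCA, each on both strands with overlapping matches counted.

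MIR222HG (chromosome X, 45745214 to 45770267, minus strand) lay within one of the most densely acetylated windows of the genome in both lists. In knockout a peak of 41.7 kb (45741906 to 45783557, fold 13.2, the fourth widest of its list) spanned the whole gene and its start. In control the same stretch held 3 peaks, of 2.56 kb with fold 3.58 (45742698 to 45745254), 33.3 kb with fold 9.22 (45746505 to 45779801) and 1.82 kb with fold 3.39 (45781499 to 45783320). The widest of these was at fold percentile 75.4, and the knockout peak at 83.4. Upstream of the start, control peaks of 6.03, 2.15 and 16.0 kb faced knockout peaks of 2.93 and 0.487 kb and a pair of 0.313 and 13.3 kb. The control list thus had longer peaks upstream and the knockout list a longer one over the gene, with 73.9 kb covered in control and 72.2 kb in knockout. Which list covered more depended on the window: with 20 kb either side the knockout to control ratio was 1.08 in place of 0.976, and it was 1.035 among peaks with a −log10 q of at least 5.

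Beyond the 3′ end of MIR222HG, 8.39 kb from the gene, lay the genotype-only peak with the highest fold percentile of all members. This knockout-only peak of 2.45 kb (45734378 to 45736825) had a fold of 6.37, at percentile 57.2, and a −log10 q of 14.2. The nearest control peak was 5.87 kb away. A second downstream peak, 9.33 kb wide in control (45707927 to 45717257, fold 11.8) and 9.56 kb in knockout (45707265 to 45716824, fold 16.6), was shared. The only control-only peak (45817646 to 45818907, fold 2.65) lay upstream at the far edge of the window.

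LINC-PINT (chromosome 7, 130877562 to 131109925, minus strand), a long non-coding RNA induced by p53, had the largest covered length of the members and the largest difference between the lists. Control peaks covered 101 kb and knockout peaks 82.2 kb, with 77.8 kb under both, a ratio of 0.811 that stayed between 0.777 and 0.904 under the alternatives. Most of the difference lay in 2 stretches that were 1 peak in control and several in knockout. One control peak of 52.8 kb (130877492 to 130930257, fold 11.4, the fourth widest of its list) faced 4 knockout peaks with 41.5 kb in all. The widest of the 4 was 38.0 kb (130884007 to 130921956, fold 13.3), and the others were 0.230, 1.27 and 2.04 kb. By fold percentile the control peak was at 84.3 and the widest knockout peak at 83.6. A control peak of 16.1 kb (130947896 to 130963961, fold 8.90) faced knockout peaks of 1.21 and 10.6 kb.

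The starts of LINC-PINT at its upstream end did not differ in this way. A peak of 6.51 kb in control (131105606 to 131112113, fold 22.4, percentile 99.2) and 6.70 kb in knockout (131105435 to 131112135, fold 26.5, percentile 98.6) covered 3 listed starts, and also the lower-coordinate end of MKLN1, a protein-coding neighbour. Their edges differed by 171 and 22 bp. The genotype-only peaks of the locus were 3 in control (folds 2.93 to 3.04) and 2 in knockout (folds 2.44 and 4.78).

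An internal start of LINC-PINT, at 130913310, lay inside the 52.8 kb control and the 38.0 kb knockout peak. Its promoter (chr7:130913261-130913560, minus strand, hg38, from RefSeq) is printed because it sat in the domain with the largest difference in length, with the motifs found in capitals.
LINC-PINT internal promoter: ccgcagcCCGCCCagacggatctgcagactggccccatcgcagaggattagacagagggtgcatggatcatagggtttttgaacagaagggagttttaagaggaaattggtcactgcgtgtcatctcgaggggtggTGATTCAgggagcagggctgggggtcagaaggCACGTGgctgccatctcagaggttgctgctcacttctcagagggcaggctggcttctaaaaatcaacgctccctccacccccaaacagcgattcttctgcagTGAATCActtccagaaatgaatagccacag
It held 2 AP-1 sites, beginning 114 bases before and 20 bases after the start, an E-box 82 bases before it and a GC box 243 bases before it. AP-1 sites were in 7.68% of all promoters and E-boxes in 7.27%. It was the only member promoter with either motif.

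**Figure D3:**
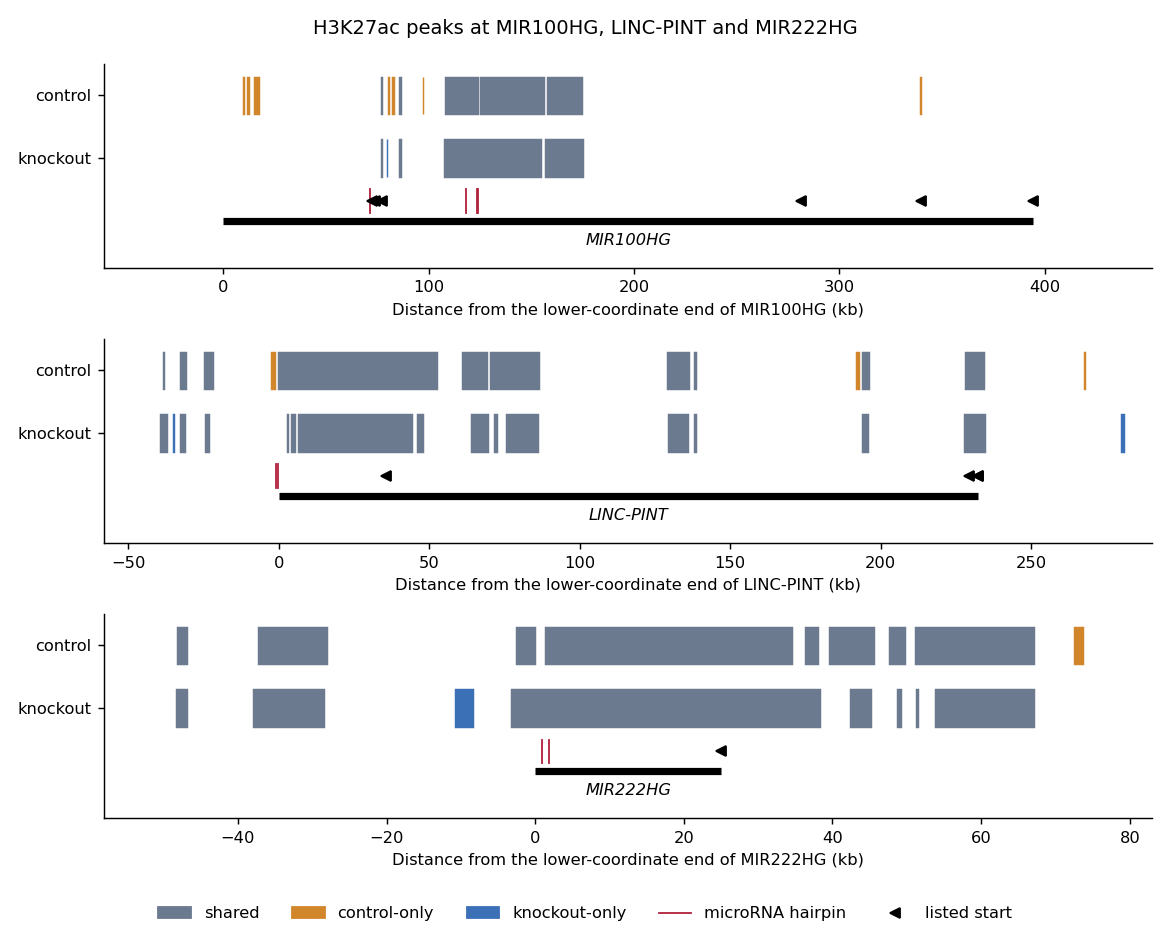
Maps of MIR100HG, LINC-PINT and MIR222HG, with the distance in kb from the lower-coordinate end of each gene on the x axis, control peaks above knockout peaks, the gene span as a black bar, hairpins as red ticks and listed starts as arrowheads. The domain inside MIR100HG is divided into 3 control and 2 knockout peaks, the first LINC-PINT domain is 1 control peak facing 4 knockout peaks, and the MIR222HG gene lies under 1 knockout peak.

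NEAT1 (chromosome 11, 65422798 to 65445540) and MALAT1 (65497738 to 65506516, plus strand) are neighbours, and both were acetylated over their starts or gene bodies with strong peaks of both lists. At NEAT1 a peak of 17.4 kb in control (65416152 to 65433587, fold 17.3, percentile 96.4) and 18.2 kb in knockout (65416083 to 65434286, fold 28.4, percentile 99.1) covered the lower-coordinate end. All 6 control and all 7 knockout peaks of NEAT1 were shared. Its covered length was 39.3 kb in control and 33.8 kb in knockout, a ratio of 0.860. Most of that difference was a weak control peak of 6.65 kb over the higher-coordinate end (65441799 to 65448450, fold 3.02, percentile 17.0), in whose stretch knockout had peaks of 399 and 1182 bp beyond the gene.

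MALAT1 lay whole under 1 peak in each list, of 24.0 kb in control (65485162 to 65509159, fold 16.2) and 26.1 kb in knockout (65485158 to 65511239, fold 21.0). Their lower-coordinate edges differed by 4 bp, and their fold percentiles were 95.1 and 95.8. On the NEAT1 side, a knockout peak of 13.5 kb (65470483 to 65483939, fold 17.7) faced control peaks of 3.50 and 7.31 kb, so 40.7 kb was covered in control and 44.2 kb in knockout. The sole genotype-only peak was control-only, 285 bp wide and of fold 2.87 (65551154 to 65551438), inside LTBP3. Both listed starts of MALAT1 were acetylated in both lists. The first held 5 GC boxes and the second a TATA box beginning 30 bases before the start, a motif in 11.5% of all promoters.

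MIR21 (chromosome 17, 59841266 to 59841337) lies near the higher-coordinate end of the span of VMP1, an autophagy gene, and was covered in both lists by a wide and strong peak. In control this peak was 25.2 kb (59824359 to 59849526, fold 18.1, percentile 97.1) and was followed by peaks of 5.87 kb (fold 18.8) and 0.650 kb (fold 2.25). In knockout 1 peak of 35.3 kb (59824916 to 59860206, fold 27.8, percentile 99.0) covered 97.8% of the first of these and the whole of the others. It was the seventh widest of its list. The other peaks, within VMP1, were 10.1 and 13.9 kb in control and 11.3 and 12.1 kb in knockout. Of the first of each, only 139 and 421 bp lay inside the window. No peak of the locus was genotype-only. The covered length was 45.7 kb in control and 47.8 kb in knockout, and when peaks under 3 kb apart were joined the ratio turned from 1.05 to 0.966.

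MIR22HG (chromosome 17, 1711504 to 1716210, minus strand) and MIR17HG (chromosome 13, 91347687 to 91354577, plus strand) had short, strong peaks at their starts in both genotypes. The MIR22HG start lay under a peak of 5.55 kb in control (1713155 to 1718702, fold 21.5, percentile 98.9) and 5.63 kb in knockout (1713372 to 1719001, fold 30.2, percentile 99.4). The same peak covered the lower-coordinate end of WDR81, a protein-coding neighbour. The rest of the window held 5 further shared pairs, 1 control-only peak (fold 2.35) and 2 knockout-only peaks (folds 4.25 and 3.45). Covered length was 16.4 kb in control and 17.1 kb in knockout, a ratio of 1.04 that became 0.954 with a window of 100 kb.

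At MIR17HG 1 shared peak made up nearly all acetylation, with 3.50 kb in control (91346795 to 91350289, fold 21.5, percentile 98.9) and 3.83 kb in knockout (91346717 to 91350548, fold 28.1, percentile 99.0). A knockout-only peak of 229 bp (91313450 to 91313678, fold 2.35) lay 34.0 kb from the gene. The MIR17HG promoter (chr13:91347437-91347736, plus strand, hg38, from RefSeq) is printed as the most GC-rich acetylated start of the members apart from that of MALAT1, with its GC boxes in capitals.
MIR17HG promoter: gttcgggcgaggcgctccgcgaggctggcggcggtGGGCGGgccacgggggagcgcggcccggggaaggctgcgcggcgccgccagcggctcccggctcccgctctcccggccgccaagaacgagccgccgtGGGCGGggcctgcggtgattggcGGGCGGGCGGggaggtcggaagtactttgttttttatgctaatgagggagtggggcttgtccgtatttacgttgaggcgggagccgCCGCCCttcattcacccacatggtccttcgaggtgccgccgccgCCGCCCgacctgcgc
It held 73.0% G and C, 42 CG pairs and 6 GC boxes, of which 2 overlap. GC boxes were in 45.0% of all promoters and in 70.5% of the 16017 promoters under peaks of both lists.

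**Figure D4:**
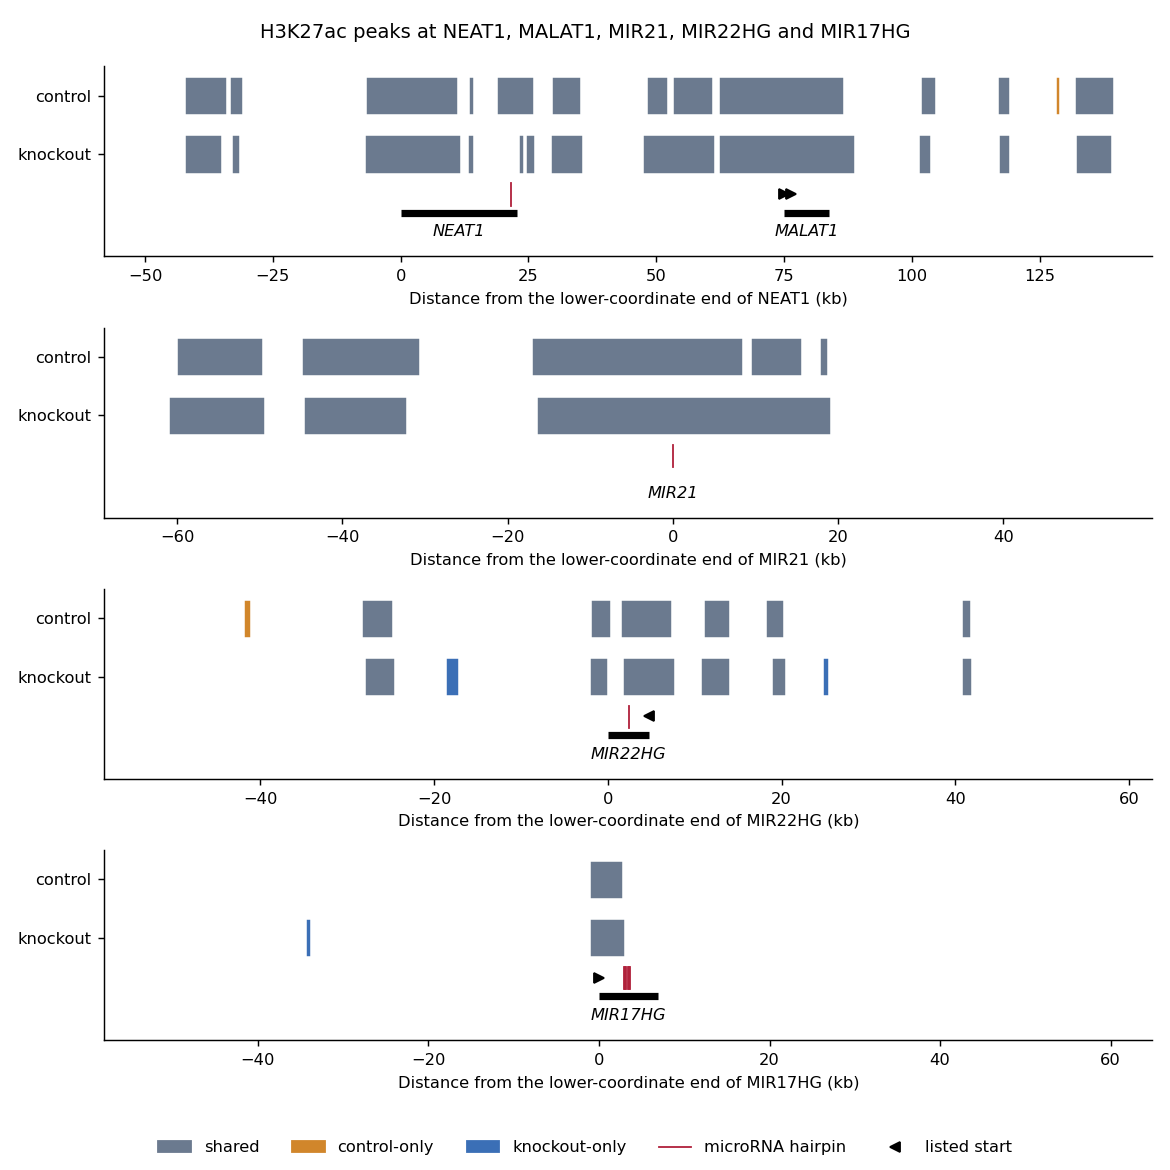
Maps of NEAT1 with MALAT1, MIR21, MIR22HG and MIR17HG drawn in the same way, with the distance in kb from the lower-coordinate end of the first named gene on the x axis. Strong shared peaks cover MALAT1, MIR21 and the starts of MIR22HG and MIR17HG in both lists, and the few genotype-only peaks lie outside the spans of the member genes.

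MIR31HG (chromosome 9, 21454268 to 21559798, minus strand) was the only member without a peak in either list. The peak-free stretch around it ran for 4.18 Mb in control (20732916 to 24912631) and 4.94 Mb in knockout (20733257 to 25677001). Among the distances between neighbouring peaks, it was number 18 of 39774 in control and number 13 of 42529 in knockout, where the medians were 21.4 and 19.1 kb. The stretch held 24 protein-coding genes in both lists, among them MTAP, CDKN2A, CDKN2B and many type I interferon genes. Its lower edge was a peak in both lists, 721 kb from MIR31HG. The promoter of MIR31HG was GC-rich (77.7%) with 4 GC boxes. A peak list does not tell a locus without the mark from one without reads. Of all genes of the table, 23.9% had no peak of either list in their window.

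The hairpins themselves fell on both sides of peak edges. Of 18 hairpins, 5 lay under peaks of both lists (MIRLET7A2, MIR10526, MIR222, MIR22 and MIR21), 2 under a control peak alone (MIR29B1 and MIR612), 2 under a knockout peak alone (MIR100 and MIR221) and 9 under neither. No such count over all hairpins of the genome is given here, so these numbers describe the member loci only. The knockout-alone hairpins lay in short gaps of the control list: MIR100 in a gap of 1154 bp, 48 bp from the nearest peak, and MIR221 in one of 1250 bp, 238 bp from the nearest. The smallest distance between neighbouring peaks was 997 bp in the control list and 904 bp in the knockout list, so both gaps were near the shortest that the lists hold. MIR222, which has the seed of MIR221 and lies next to it, was under a peak in both lists.

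The control-alone hairpins were MIR29B1, at a peak edge, and MIR612, 2659 bp inside a weak control peak of NEAT1 (fold 3.02). The nearest knockout peak to MIR612 was 1491 bp away. MIR29B1 overlapped the edge of the 52.8 kb LINC-PINT peak of control by 48 bp, whereas the nearest knockout peak was 2736 bp away. MIR29A, beside it, lay in a control gap of 1280 bp, 535 bp from a control and 3465 bp from a knockout peak. The 6 hairpins of MIR17HG lay beyond the higher-coordinate edge of its start peak in both lists. MIR17 was 315 bp from the control and 56 bp from the knockout peak, and MIR92A1, the last, 1024 and 765 bp. MIR125B1 was 5292 bp from the nearest control and 5509 bp from the nearest knockout peak.

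**Figure D5:**
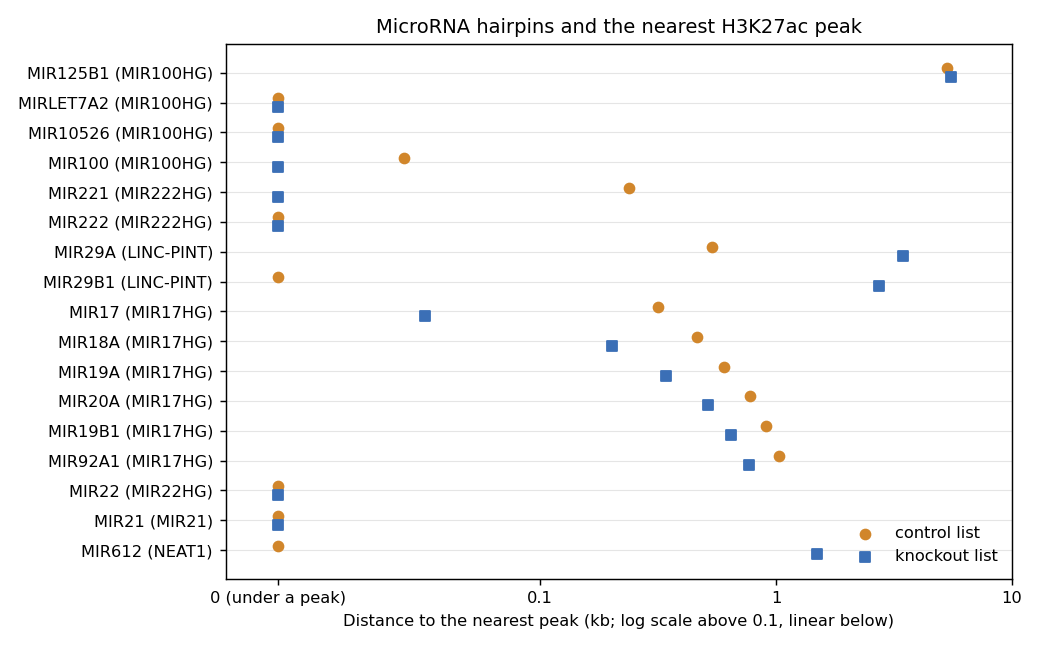
Distance in kb from each microRNA hairpin to the nearest peak (x axis, log above 0.1 kb and linear below, with 0 for a hairpin under a peak), for the control list (circles) and the knockout list (squares). MIR31, 779199 bp from a control and 778858 bp from a knockout peak, is not drawn. MIR100 and MIR221 are at 0 in knockout alone, MIR29B1 and MIR612 in control alone, and the MIR17HG hairpins lie outside the peak in both.

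The 41 shared regions comprised 33 with 1 peak from each list, 4 with 1 control peak facing several knockout peaks and 4 with 1 knockout peak facing several control peaks. Control joined at LINC-PINT (2 regions), NEAT1 and MIR222HG, and knockout joined at MIR100HG, MIR222HG, MIR21 and MALAT1. Among the 33 pairs the edges differed by a median of 261 bp. Peaks wider than 10 kb numbered 12 of 60 control and 12 of 54 knockout peaks at these loci. In the whole lists they numbered 608 of 39797 control peaks (1.53%) and 503 of 42552 knockout peaks (1.18%). No whole-list count of split or joined regions is given here.

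The local background of the peaks, taken as the authors' pileup divided by their fold, differed between loci in the same order at its extremes. It was highest at MALAT1, at 1.69 times the list median in control and 1.84 times in knockout. It was lowest at MIR222HG, at 0.634 and 0.611 times. The list medians themselves differed, at 4.28 in control and 5.85 in knockout. Folds at these loci are therefore relative to unlike backgrounds. The part of background in peak width or in the genotype-only classes was not tested.

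Other microRNA hosts and long non-coding RNA genes, a list of 40, had 25 control-only peaks of 200 (12.5%) and 32 knockout-only peaks of 212 (15.1%), beside 18.0% and 22.4% of the whole lists. Their covered length was 564 kb in control and 530 kb in knockout. Of the 35 with a listed start, 23 had a start under peaks of both lists, 2 under a knockout peak alone (MIR34AHG, the host of the p53-induced miR-34a, and MIR4435-2HG) and 10 under neither. Counted in this way by gene, over all starts, 1.33% of the 11383 long non-coding RNA genes with a listed start were under control peaks alone and 1.8% under knockout peaks alone. Among the members, 6 of the 7 with a listed start were acetylated there in both lists, beside 25.0% of all long non-coding RNA genes. The members were chosen on peaks of these lists, so these shares are not compared. MIR100HG was counted through only 1 of its listed starts, under weak peaks (folds 2.35 in control and 2.42 in knockout). The listed genes with the most genotype-only peaks were MIR4435-2HG (4 control-only, 2 knockout-only), CYTOR (1 and 3) and MIR205HG (0 and 4), the last with 2.70 kb covered in control and 13.6 kb in knockout.

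Genes that make, load or bind these RNAs had their starts acetylated in both genotypes. Of 18 microRNA processing and effector genes with a listed start, 17 were so, and LIN28B, which blocks let-7 maturation, had no peak there. All 8 paraspeckle and speckle protein genes with a listed start were acetylated in both. Of all 15811 protein-coding genes with a listed start, 62.0% were. Around the 19 processing genes, 27 of 100 control peaks were control-only and 16 of 88 knockout peaks knockout-only, beside 18.0% and 22.4% of the whole lists, with 198 kb covered in control and 162 kb in knockout. DDX5, a Drosha cofactor, had 7 control-only and 1 knockout-only peaks, TNRC6A, a partner of Argonaute, 1 and 5, and XPO5, the exporter of hairpins, 6 and 0. The 11 paraspeckle and speckle genes had 14 control-only peaks of 54 (25.9%) and 6 knockout-only peaks of 49 (12.2%), beside the same whole-list shares, with PSPC1 (3 and 1), SON (2 and 2) and HNRNPK (2 and 0) first by number.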

How the data were processed

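H3K27ac immunoprecipitates and inputs of both genotypes were represented by 2 peak lists, each of 1 genotype's immunoprecipitate against its input. The submitters' processing notes name Bowtie2 2.3.5.1, MACS2 2.2.6 and the build hg38. Options, depth and any pooling of replicates are not given in the sources used here. For each peak the authors deposited its position, its pileup (a coverage signal), the −log10 of its q-value and a fold enrichment (a ratio), per the file headers. Peak widths and counts depend on how the caller joins nearby stretches.

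Unplaced contigs were left out, and coordinates are 1-based. Python 3.11.15, pandas 2.3.3, numpy 2.4.6 and scipy 1.17.1 served to compute overlaps, which were checked with bedtools 2.31.1 and tested on simulated data, and figures drawn with matplotlib 3.10.9. Gene spans came from RefSeq on GRCh38.p14. Covered length was limited to the windows. With 1 list per genotype there was no test, and folds were ranked within a list only. Members and lists were chosen with earlier results of these data known. All 9 members were named, with their genotype-only, widest, start and hairpin peaks, and of each comparison list the 3 genes with the most genotype-only peaks, ties by symbol. Alternatives changed the window, peak threshold, overlap and joining.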

Additional observations from a re-analysis of the deposited data

How the results depend on the processing

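Requiring an overlap of at least 50% of the shorter peak left every count and ratio at the member loci as it was. Joining peaks under 1 kb apart tested nothing, since the smallest gaps in the lists were 997 and 904 bp and no value moved. With a window of 20 kb, 31 control and 31 knockout peaks were shared and 3 were knockout-only. With a window of 100 kb, 22 peaks were control-only. With a −log10 q of at least 5, 35 control and 32 knockout peaks were shared, 2 were control-only and 5 knockout-only. With the 30000 peaks of highest −log10 q in each list, 35 and 32 were shared, 3 were control-only and 4 knockout-only. Of these control-only peaks only the 1 at MIR100HG was control-only before, and those at MIR222HG and NEAT1 were shared peaks whose partners fell below the threshold. Joining peaks under 3 kb apart was an alternative added after seeing the data. It gave 30 shared control and 32 shared knockout peaks, with 7 control-only and 5 knockout-only. Whole-list shares under the alternatives are not given here, so these counts describe the member loci only. The ratio of covered length over all members stayed below 1 in every alternative run. For single loci it crossed 1 in 5 recomputed values: MIR222HG (1.08 with a window of 20 kb and 1.035 under both peak thresholds), MIR22HG (0.954 with a window of 100 kb) and MIR21 (0.966 with peaks under 3 kb apart joined). The cause was not tested, and a difference in covered length of this size at these 3 loci has no fixed direction. No paired analysis was possible because each genotype had a single peak list, so no replicate could be left out either. Depth was not given, so no limit on the detection of weak peaks could be set. The median background and the median −log10 q differed between the lists, as given above.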
